A study of Mus musculus with 6 samples.

Results

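The histone genes of the proximal mouse incisor were taken as every gene of the expression table whose name begins with Hist1h to Hist4h, H2af, H3f3 or H1f, which gave 17 of 19270 genes. Of these, 10 were replication-dependent histone genes, meaning that their name or their older symbol in RefSeq begins with Hist, and 7 belonged to the variant class. The 10 are *H1f1*, *H1f2*, *H1f3*, *H1f4* and *H1f5*, formerly *Hist1h1a* to *Hist1h1e* in another order, and *Hist1h2ao*, *Hist1h2ap*, *Hist1h2bq*, *Hist1h2br* and *Hist1h4m*. The 7 are *H1f0*, *H1f10* (formerly *H1fx*), *H3f3a*, *H3f3b*, *H3f3c*, *H3f3a-ps2* and *H3f3aos*. The table names most histone genes by newer symbols, so the name rule left out 29 further histone genes, 22 replication-dependent and 7 variant, which RefSeq ties to a matching older symbol. These 29 serve below as the nearest comparison. Some histone genes of the GENCODE annotation, such as *Hist1h4n* and *Hist2h3b*, were found under neither kind of name. Class medians and counts below therefore cover only the genes listed.

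The RNA came from the proximal incisor of mice aged 1 month, taken 4 days after tamoxifen, in 3 control and 3 *Arid1b* mutant samples. The sample titles and the study's RNA-seq methods do not state how many mice each sample holds. Mutants were *Gli1-CreER;Arid1b fl/fl*, in which tamoxifen activates Cre only in cells that express *Gli1* and these then lose the floxed *Arid1b*, a DNA-binding subunit of the BAF chromatin remodelling complex. Controls also received tamoxifen, and their genotype is wild type by the labels and *Arid1b fl/fl* by the study's methods. Neither genotype as named includes *Gli1-CreER*, so the CreER allele and the loss of *Arid1b* cannot be told apart in these samples. The methods name the tissue as mesenchyme, and in bulk tissue cells that kept *Arid1b* were sequenced with the cells that lost it. Each gene has 1 mean per group in the authors' normalized signal, and no value of a single library was given with it. No SD and no test across mice could therefore be given, and every difference below is a ratio of 2 group means without a replicate check. *Arid1b* itself had a mean of 97.6 in controls and 38.0 in mutants, a ratio of 0.390.

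Replication-dependent histone genes lie mostly in clusters, lack introns in their coding sequence, and are transcribed in S phase, when new DNA has to be packed. Their mRNAs are the known exception among animal mRNAs. They end just after a conserved stem-loop, to which the stem-loop binding protein SLBP attaches, and carry no poly(A) tail, although many of these genes can also give a longer, polyadenylated RNA by using a signal further downstream. Variant histones such as H3.3 and H1.0 are made from ordinary polyadenylated mRNAs throughout the cell cycle, and they replace the replicative histones in non-dividing cells. A library made from tailed RNA would take up the first class poorly. Whether RNA was selected by its tail or by removal of ribosomal RNA is not given in the sources used here.

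The annotated transcript ends of the members differed between the classes, with exceptions on both sides. The sequences below are from GENCODE vM21 transcripts on GRCm38 (mm10), 5′ to 3′ on the gene's strand, and capitals mark the histone stem-loop consensus or the polyadenylation signal. The stem-loop was present in 6 of the 10 replication-dependent members and in none of the 7 variant members, and a 7th, *H1f1*, held its first 15 letters because its annotated transcript stops there. Across all 21951 protein-coding genes of the annotation, 48 (0.219%) had a transcript with the consensus.

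H1f1, stem-loop, chr13:23764387-23764406, + strand: ccaacGGCTCTTTTCAGAGC
H1f2, stem-loop, chr13:23739507-23739532, + strand: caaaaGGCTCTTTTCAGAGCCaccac
H1f2, polyadenylation signal, chr13:23740332-23740357, + strand: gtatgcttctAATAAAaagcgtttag
H1f4, stem-loop, chr13:23621777-23621802, - strand: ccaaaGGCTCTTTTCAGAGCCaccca
Hist1h2ap, stem-loop, chr13:21833026-21833049, - strand: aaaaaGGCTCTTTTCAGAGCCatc
Hist1h2bq, polyadenylation signal, chr13:21807288-21807313, - strand: aagaatattaAATAAAtttgtttctt
Hist1h2br, polyadenylation signal, chr13:21836629-21836654, + strand: aagaatattaAATAAAtttgtttctt
Hist1h4m, stem-loop, chr13:21812124-21812147, + strand: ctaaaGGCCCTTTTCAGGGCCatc
H1f0, polyadenylation signal, chr15:79030473-79030498, + strand: aaaactttaaAATAAAactggaaagg
H1f10, polyadenylation signal, chr6:87980426-87980451, - strand: cctggggcgcAATAAAcggttccaac
H3f3a, polyadenylation signal, chr1:180800838-180800863, - strand: tttgaaaaatAATAAAagtaccaata
H3f3b, polyadenylation signal, chr11:116021989-116022014, - strand: aggccttacaAATAAActagtaagtt

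These stretches are shown because they hold the stem-loop and the tail signal by which the classes are known, including members that depart from their class. The stem-loop was searched anywhere in a transcript, and in *H1f4* and *H1f3* the annotated transcript runs 1153 and 4884 bases past it. AATAAA or ATTAAA, searched on the transcript strand in the last 50 bases of each annotated transcript, was found in 3 of the 10 replication-dependent members, in 4 of the 7 variant members, and in 17704 (80.7%) of the protein-coding genes. The variant members with the signal were the 4 protein-coding ones by this annotation, *H1f0*, *H1f10*, *H3f3a* and *H3f3b*. *H1f2* was the member with both features: its stem-loop is followed 840 bases later by the end of a transcript whose last bases hold AATAAA. *Hist1h2bq* and *Hist1h2br* had the signal and no stem-loop in their annotated transcripts, and *H1f5*, whose annotated transcript carries little beyond its coding sequence, had neither.

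The signal of a library was taken to be its reads for a gene, with 1 added, times a scaling factor, so that a gene with 0 reads in every library has a mean of 0.0259 in controls and 0.0231 in mutants. This reading is an inference. Of the means within 5 reads of the lowest, 35 of 68 in controls and 20 of 49 in mutants equalled a sum of whole reads in the 3 libraries within a relative difference of 4e-06, and the others did not. Under it the libraries held an estimated 37123643 to 49594469 reads. The floor of 3 reads in every library corresponds to 0.103 in controls and 0.0923 in mutants. Intervals given below are exact 95% Clopper-Pearson intervals from these estimated reads, which cover counting error only and not the spread between mice. They leave out the added 1, which the printed ratios keep, so the 2 differ at few reads. The ratio of *H1f1*, for example, is 0.554 with the added 1 and 0.502 without.

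The 4 protein-coding variant genes were abundant, whereas most replication-dependent members were close to the detection limit. *H3f3b* and *H3f3a* had control means of 563.8 and 510.6, which placed them at ranks 144 and 183 of the 19270 genes. At the other end, *Hist1h4m*, *Hist1h2bq*, *H1f1* and *H1f5* had control means of 0.167, 0.174, 0.195 and 0.206, each below the 5th percentile of the table, with an estimated 16, 17, 20 and 21 reads summed over the 3 control libraries. In all, 7 of the 10 replication-dependent members had a mean over both groups under 1, and none of the 7 variant members did. Every member's mean was above the floor of 3 reads per library in both groups, the lowest being *H1f1* in mutants at 0.108.

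**Figure D1:**
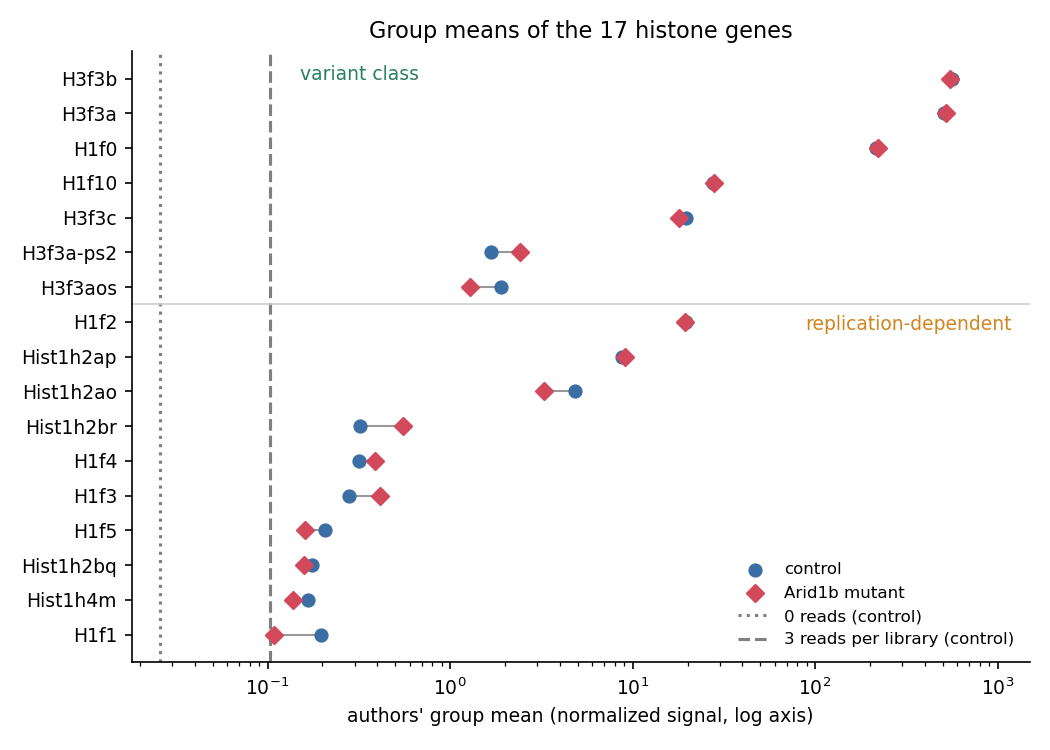
Authors' group means (normalized signal, log axis) of the 17 histone genes in controls (circles) and *Arid1b* mutants (diamonds), with lines at the control value of 0 reads and of 3 reads per library. The 4 protein-coding variant genes lie between 27.7 and 563.8 with both groups nearly on top of each other, and 7 replication-dependent genes lie under 1.

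Per kb of exon, the scale on which genes can be compared, the gap remained. The median control level per kb was 0.271 over the 10 replication-dependent members, with a range of 0.0375 to 18.2, and 47.8 over the 7 variant members, with a range of 0.628 to 189.4. The ranges overlapped: *Hist1h2ap* (18.2 per kb), *H1f2* (12.6 per kb) and *Hist1h2ao* (10.1 per kb) lay above *H3f3a-ps2* (4.08 per kb) and *H3f3aos* (0.628 per kb). No replication-dependent member reached the lowest of the 4 protein-coding variant genes, *H1f10*, at 22.7 per kb. Against coding length alone the medians were 0.512 and 208.9 per kb, the latter over the 6 variant members with a length for that scale. The mutant medians per kb of exon were 0.233 and 43.7. The variant medians of 47.8 and 43.7 are the values of *H3f3c*, a processed pseudogene by GENCODE. Over the 4 protein-coding variant members alone, the control median was 125.1 per kb of exon.

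Linker histones bind the DNA that enters and leaves the nucleosome, and the linker genes of both classes could be set side by side. *H1f0*, which encodes the replacement linker histone H1.0 known from differentiated and slowly dividing cells, had means of 214.6 in controls and 220.0 in mutants, a ratio of 1.02. *H1f10*, which encodes the divergent variant H1.10, had means of 27.7 and 28.0, a ratio of 1.01. Both ratios lay close to 1. Per kb of exon in controls, *H1f0* was 4.59 times as high as *H1f10*.

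*H1f2*, which encodes the somatic linker histone H1.2, was the highest of the 5 replication-dependent linker genes. Its means were 19.7 in controls and 19.4 in mutants, a ratio of 0.988 with a counting interval of 0.933 to 1.05. Per kb of exon in controls it was 76.6 times as high as *H1f4* and 47.8 times as high as *H1f1*, both of which had few reads. Against *H1f4* it was 61.8 times as high in mutants, and 64.0 times per coding kb in controls. Against *H1f1* these values were 85.4 and 101.2 times. *H1f0* in turn was 8.28 times as high as *H1f2* per kb of exon in controls. *H1f2* made up 56.3% of the summed control means of the replication-dependent members. *H1f2* was also the linker gene of this class whose annotated transcripts reach AATAAA past the stem-loop printed above; the part of that feature in its level was not tested.

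The other replication-dependent linker genes, which encode H1.1, H1.3, H1.4 and H1.5, rested on few reads. *H1f1* had means of 0.195 in controls and 0.108 in mutants, a ratio of 0.554, or 1.81-fold lower, and was the 1 member more than 1.5-fold lower in mutants. For this gene the group means are met by a single combination of whole reads, at 2, 6 and 12 in control libraries 1 to 3 and 4, 2 and 5 in mutant libraries 1 to 3. The 2 groups overlapped, and the counting interval of the ratio, 0.212 to 1.07, included 1. *H1f5* likewise gave 2, 10 and 9 reads in the control libraries and 4, 2 and 11 in the mutant libraries, with means of 0.206 and 0.161 and a ratio of 0.780 (interval 0.384 to 1.51). The per-library reads of these 2 genes come from the inference above, under which 0.03 to 0.07 combinations would match at random. Of the 8 group means of members tried in this way, those of *Hist1h2bq* in controls and of *Hist1h4m* in both groups were met by no combination of whole reads. The matched reads spread from 2 to 12 within the controls of *H1f1*, and those of *Hist1h2bq* from 1 to 13 within the mutants.

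*H1f3* had means of 0.278 and 0.416, a ratio of 1.49 that stayed just under the 1.5-fold threshold, with a counting interval of 0.976 to 2.57. *H1f4* had means of 0.318 and 0.389, a ratio of 1.23 with an interval of 0.795 to 2.02. The exons of *H1f4* overlap those of *Hist1h2be*, a neighbouring H2B gene, on the same strand, so reads there may belong to either. Of the 5 linker genes of this class, 2 were higher and 3 lower in mutants.

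Among the core histone members, which form the nucleosome's protein spool, the 2 H2A genes were the highest. *Hist1h2ap* had means of 8.79 in controls and 9.06 in mutants, a ratio of 1.03 with an interval of 0.947 to 1.12. *Hist1h2ao* had means of 4.83 and 3.28, a ratio of 0.679, close to the 1.5-fold threshold but not past it, with a counting interval of 0.596 to 0.771. The coding sequences of the 2 genes are 100% identical, and each is at least 97% identical to 11 histone genes of the annotation, so reads can be split between them in ways the group means do not show. Their summed means were 13.6 in controls and 12.3 in mutants, a ratio of 0.906 (interval 0.844 to 0.972). Neither has AATAAA or ATTAAA at its annotated end, and both transcripts end within 31 bases after the stem-loop. Per kb of exon in controls, *Hist1h2ap* was 1.45 times as high as *H1f2*, and per coding kb it stood at 0.729 of *H1f2*.

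The 2 H2B genes, *Hist1h2bq* and *Hist1h2br*, are also 100% identical in coding sequence. *Hist1h2br* had means of 0.320 and 0.552, a ratio of 1.72, the 1 member more than 1.5-fold higher in mutants, from an estimated 34 and 69 reads (interval 1.18 to 2.82). *Hist1h2bq* had means of 0.174 and 0.159, a ratio of 0.911 with an interval of 0.459 to 1.95. Their sum was 0.495 in controls and 0.711 in mutants, a ratio of 1.44 (interval 1.05 to 2.17). *Hist1h4m*, an H4 gene identical in coding sequence to *Hist1h4n*, had means of 0.167 and 0.137, a ratio of 0.822 (interval 0.385 to 1.81). No combination of whole reads met either mean, and this interval, like the others, rests on estimated reads only.

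H3.3 is the replication-independent form of histone H3, placed at active genes and enhancers by HIRA and at telomeric and pericentric repeats by DAXX and ATRX, and the same protein is encoded by *H3f3a* and *H3f3b*. *H3f3a* had means of 510.6 in controls and 523.7 in mutants, a ratio of 1.03. *H3f3b* had means of 563.8 and 546.7, a ratio of 0.970. The 2 genes moved in opposite directions, by a size which is less than could be judged without a spread between mice, although their depth made the counting intervals narrow, 1.01 to 1.04 for *H3f3a* and 0.960 to 0.980 for *H3f3b*. Per kb of exon, *H3f3a* stood at 0.769 of *H3f3b* in controls and 0.813 in mutants, and per coding kb at 0.906 and 0.958. Their coding sequences are 76.7% identical, so reads from the coding part can be told apart for the most part.

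The other 3 members with H3f3 in their name do not make an ordinary H3.3 mRNA by the GENCODE annotation. *H3f3c*, annotated there as a processed pseudogene, had means of 19.66 and 17.95, a ratio of 0.913. *H3f3a-ps2*, a processed pseudogene, had means of 1.68 and 2.41, a ratio of 1.44 (interval 1.21 to 1.74). Both are copies of *H3f3a*, at 99.0% and 98.8% identity, so their values may include reads of *H3f3a*, whose control mean was 510.6. The sum of the 3 genes had a ratio of 1.02. *H3f3aos*, an antisense RNA that overlaps the start of *H3f3a*, had means of 1.91 and 1.29, a ratio of 0.674 (interval 0.546 to 0.826). Whether reads were counted by strand is not stated, so reads of *H3f3a* and *H3f3aos* cannot be told apart in the overlap.

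Between the groups, 1 of the 10 replication-dependent members was more than 1.5-fold higher in mutants and 1 was more than 1.5-fold lower, against 7.37% higher and 5.80% lower among all 19270 genes. Both genes had means under 1, a range in which 17.9% of 4526 genes were past the threshold upwards and 18.4% downwards. The members' count was thus near the share of genes at the same low level. None of the 7 variant members was past 1.5-fold, and at means of 10 or more, where 5 of the 7 lie, 2.15% of 10311 genes were higher and 0.912% lower. The median log2 ratio was -0.08 over the replication-dependent members, 0.02 over the variant members and 0.00 over all genes. The summed means fell from 35.0 to 33.7 in the replication-dependent class, a ratio of 0.964, and were 1340 in both groups in the variant class. The direction in the replication-dependent class turned, to 1.01, when each mean was divided by the sum over all genes.

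**Figure D2:**
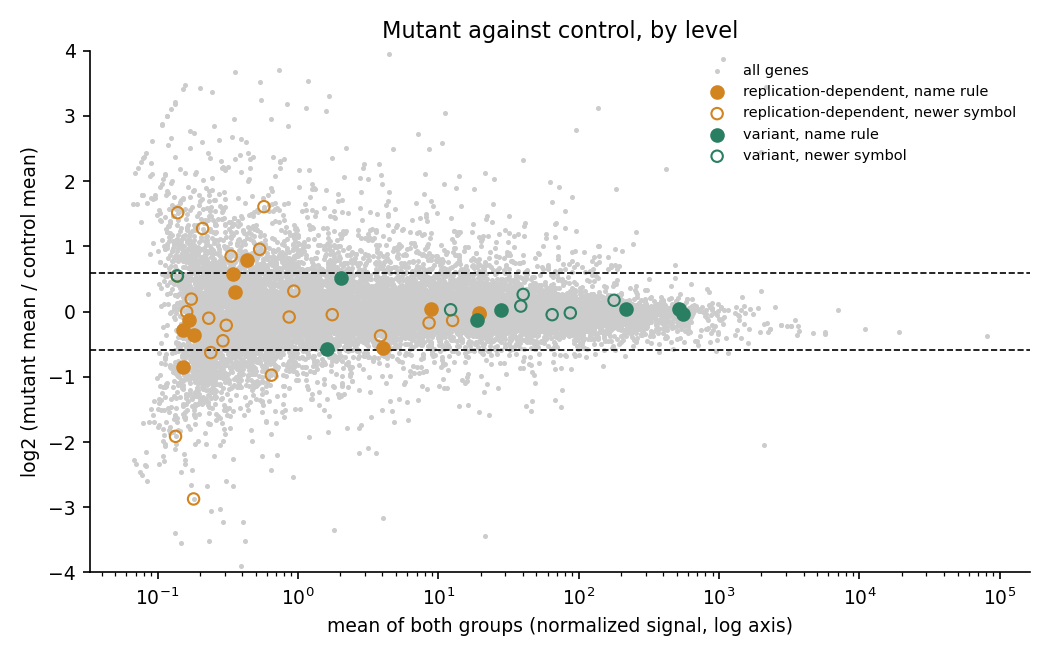
Log2 ratio of the mutant to the control mean against the mean of both groups (log axis), for all 19270 genes (grey), the 17 histone genes by the name rule (filled) and the 29 under newer symbols (open), with dashed lines at 1.5-fold; 19 genes lie outside the drawn range of 4 on either side. The histone genes with wide ratios are the replication-dependent ones at means under 1, where the grey cloud is wide too.

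The 29 histone genes under newer symbols showed the same split of levels. Of the 22 replication-dependent ones, 17 had a mean under 1, and their median control level per kb was 0.347. *H2bc4*, *H2aw* and *H2bc21* had the highest control means, 20.1, 13.2 and 9.11, with ratios of 0.969, 0.910 and 0.887. Per kb of exon in controls, *H2bc4* at 17.4 was followed by *H2ac19* at 8.28. Among the 22, 5 were more than 1.5-fold higher and 4 more than 1.5-fold lower in mutants. All 9 were among the 17 with a mean under 1, the range in which 17.9% of all genes were past the threshold upwards and 18.4% downwards. The widest in each direction were *H3c14*, with means of 0.283 and 0.863 (ratio 3.05), and *H2ac18*, with means of 0.318 and 0.0434 (ratio 0.136). The latter rested on an estimated 34 reads in controls and 3 in mutants, under the floor of 0.0923, and the counting interval of its ratio was 0.0155 to 0.250. Its coding sequence is identical to that of *H2ac19*, which had means of 4.37 and 3.38, and the sum of the 2 genes had a ratio of 0.730. These genes were chosen for mention after their values were seen.

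Of the 7 variant genes under newer symbols, 6 had a mean of at least 10 and none was past 1.5-fold. *H2az1*, which encodes the H2A.Z found beside transcription start sites, had means of 167.9 and 189.3, a ratio of 1.13. *H2ax*, which encodes the H2A.X that is phosphorylated at DNA breaks, had means of 36.6 and 43.9, a ratio of 1.20, and was the variant gene with a stem-loop as well as a polyadenylation signal in its annotated transcripts. *Macroh2a1* and *Macroh2a2*, which encode the macroH2A proteins of silent chromatin, had ratios of 0.986 and 0.968. Their levels per kb in controls ran from 0.101 for *Macroh2a3* to 94.5 for *H2az1*, below the 3 highest variant members *H3f3b*, *H3f3a* and *H1f0*.

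Within the replication-dependent class, genes with an annotated polyadenylation signal had a higher median, by a margin that depended on the length used, and overlapped with the others. Over the 32 replication-dependent genes of both naming styles, the 12 with AATAAA or ATTAAA at an annotated end had a median of 0.411 per kb in controls, and the 20 without had 0.312 per kb. Per coding kb, which leaves out the long annotated ends of some of these genes, the medians were 1.64 and 0.531, and the medians of the control means themselves were 0.582 and 0.258. The mean over both groups was under 1 in 8 of the 12 and in 16 of the 20. Levels near 10 per kb occurred with the signal, in *H1f2*, and without it, in *Hist1h2ap*, *Hist1h2ao* and *H2bc4*. Genes without the signal were not all annotated as ending at the stem-loop. Transcripts of *H1f3*, *H2ac6*, *H2bc9* and *H1f4* run 4884, 2010, 1214 and 1153 bases past it. The split is thus by annotated signal, and does not separate tailed from untailed RNA. The genome after the annotated ends was not searched.

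**Figure D3:**
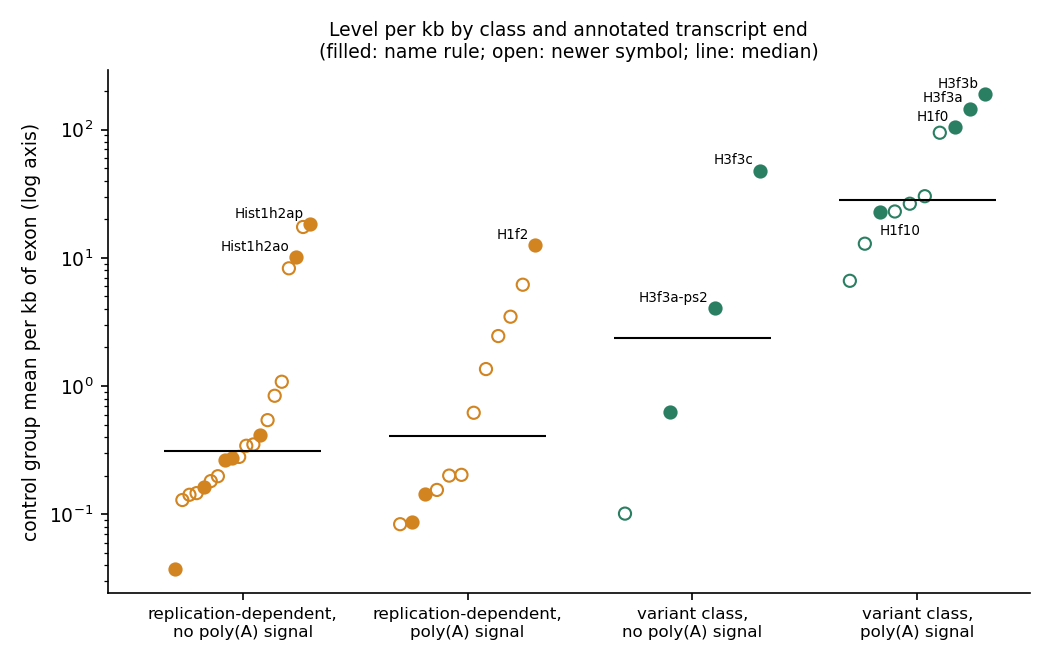
Control group mean per kb of exon (log axis) for the 46 histone genes by class and by whether an annotated transcript ends with AATAAA or ATTAAA, with the name rule filled, newer symbols open, and a line at each median. The 2 replication-dependent columns have medians of 0.312 and 0.411 on this scale (0.531 and 1.64 per coding kb) and overlap, and the protein-coding variant members sit above them.

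The genes that make, carry and place histones were read against the 2.15% of genes past 1.5-fold upwards and 0.912% downwards at means of 10 or more. At such shares a count of 0 in a short list is near that of all genes. Of 11 genes for histone mRNA transcription and 3′ end formation, none was past 1.5-fold, and the median log2 ratio was 0.06. *Slbp*, which encodes the stem-loop binding protein, had means of 55.0 and 57.4, and *Npat*, the activator of the histone gene clusters, 52.2 and 54.4. Of the chaperones of H3.3, *Hira*, *Daxx* and *Atrx* had ratios of 1.02, 0.946 and 0.970, and all 6 of that list were within 1.5-fold. None of the 6 chaperones of replication-coupled H3-H4, of the 4 of H2A-H2B and of the 8 genes of H2A.Z exchange was past it either, with median log2 ratios of 0.00, 0.05 and -0.07.

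The centromeric list stood highest among these. All 4 of its genes were higher in mutants, with a median log2 ratio of 0.18 and none past 1.5-fold. *Cenpa*, the centromeric H3 variant, had means of 23.8 and 30.4, a ratio of 1.28. Over the 6 histone-handling lists together, 0 of 39 genes were past 1.5-fold and the median log2 ratio was 0.02. No replicate test could be run on these ratios.

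The S phase genes, which mark the phase in which the replication-dependent genes are used, were read against the same shares. Of 25 S phase genes, 16 were higher and 9 lower in mutants, none past 1.5-fold, with a median log2 ratio of 0.02 and ratios from 0.854 to 1.13, a count that is also near the share of all genes. *Pcna*, the sliding clamp of DNA replication, had means of 100.2 and 99.9, and *Mcm2* to *Mcm7*, the replicative helicase, had ratios from 0.936 to 1.04. *Rrm2*, a subunit of ribonucleotide reductase, had means of 30.9 and 32.2, and *Tk1*, a thymidine kinase, 13.2 and 14.1.

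**Figure D4:**
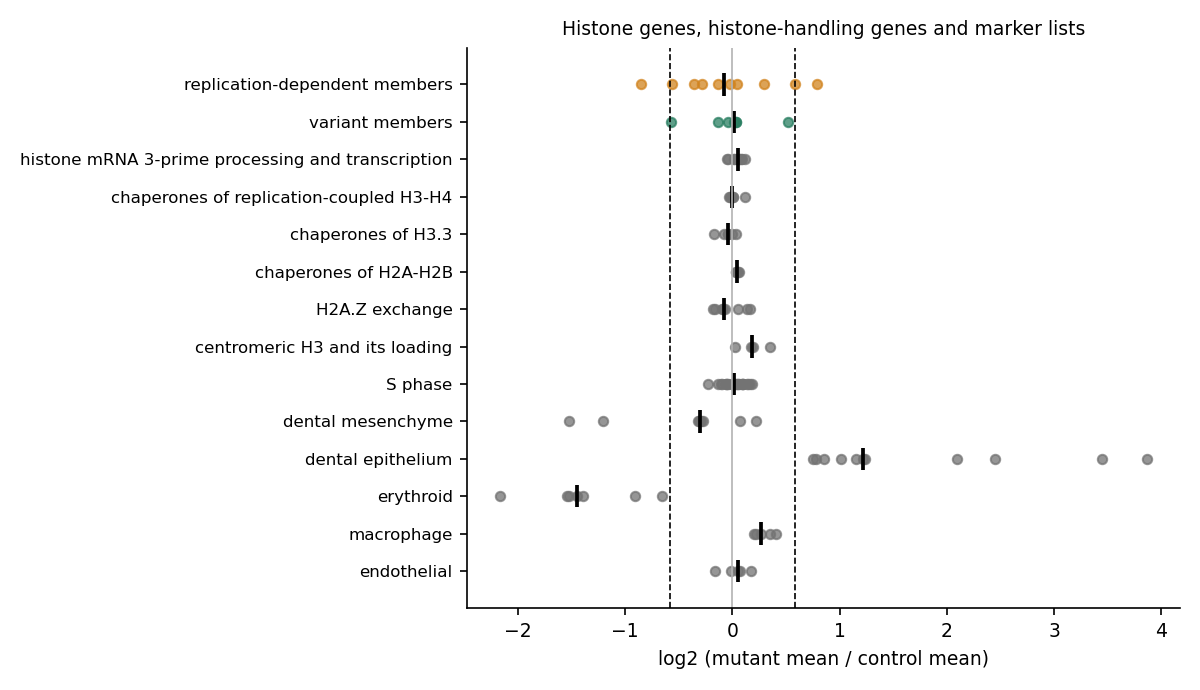
Log2 ratio of the mutant to the control mean for each gene (points) of the 2 histone classes, 7 histone-handling and S phase lists and 5 lists of cell type markers, with the median of each as a bar and dashed lines at 1.5-fold. The histone-handling and S phase genes lie within 1.5-fold, the epithelial markers lie to the right of the line and the erythroid markers to the left.

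Markers of other cell types moved between the groups in the same tissue. All 11 markers of dental epithelium were more than 1.5-fold higher in mutants, their summed means rising from 1688 to 10462, with *Amelx* at 361.9 and 3946 and *Krt14* at 90.4 and 182.3. All 7 erythroid markers were more than 1.5-fold lower, from 64.7 to 22.7 in sum, and 2 of 9 markers of dental mesenchyme were lower past the threshold, *Gli1* at 106.4 and 46.1 and *Dmp1* at 68.1 and 23.7. None of the 5 macrophage and 5 endothelial markers was past it. By the genotypes given, only the mutants carry *Gli1-CreER*, and its part in the lower *Gli1* mean was not tested. The sex-linked genes differed as well, with *Xist* at 3368 and 813.8, and *Ddx3y* at the value of 0 reads in controls and at 65.3 in mutants, so sex and genotype cannot be told apart. The part of these shifts in the histone ratios was not tested, and in bulk tissue fewer cells of a type and less RNA per cell cannot be told apart.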

How the data were processed

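RNA-seq of 3 control and 3 mutant incisor samples was analysed from the deposited tables. Per the study's methods, reads were trimmed, mapped to the mm10 assembly and tested for differential expression in Partek Flow. The submitters' processing notes name TopHat2 2.0.8. The counting of reads, its strand setting, the annotation and the library selection are not given in the sources used here. The authors deposited, for each of 19270 genes, a mean signal per group after normalization, which was used, and p-values, FDR, ratios and fold changes of their own comparison, which were not. A table of library summaries (lowest value, mean, median, upper quartile) was used, and 4 of its columns of per-library values were not. The 6 libraries share nearly 1 upper quartile, at 44.57 to 44.58.

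Log2 ratios were computed from the 2 group means, with no filter and nothing added, and a gene was called past a 1.5-fold threshold as in the study's methods. No test was possible on 1 mean per group. To estimate the reads of a group, its mean was divided by its value of 0 reads, 1 was taken off, and the result was multiplied by 3 libraries. Lengths, transcript ends and overlaps came from GENCODE vM21, in which all 46 histone genes were found, and which may differ from the authors' annotation. Coding sequences at least 97% identical without gaps were called near-identical. The 100 bases after the exons could not be searched, since transcripts and no genome were used. Older symbols came from RefSeq (GRCm38.p6), for names only.

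The genes named were all members, *Arid1b*, and list genes with a mean of at least 10 past 1.5-fold, given by count with examples. Further genes were named after their values were seen, namely those under newer symbols and those of the histone-handling and S phase lists. The members and lists were chosen with earlier results of these data known, and 1 gene of these lists is not reported here. The scripts were checked on reads simulated under the inferred model, without spread between mice. Most genes set to a 2-fold change at means of at least 10 were called past 1.5-fold. This does not check the inference itself. Scripts ran in Python 3.11.15, with scipy 1.17.1 for the intervals, numpy 2.4.6 and pandas 2.3.3 for the tables, and matplotlib 3.10.9 for the plots.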

Additional observations from a re-analysis of the deposited data

How the results depend on the processing

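No paired analysis was possible because each gene has 1 mean per group, and leaving out each replicate and the limma fits planned for values per sample were not run for the same reason. Among replication-dependent members, the 1 higher and 1 lower call past 1.5-fold became 0 and 0 at 2-fold, at a mean of at least 10, at a mean of at least 1 and with 1 added to both means, and 2 and 3 past a ratio of 5 to 4. Without near-identical members the higher call became 0. With the value of 0 reads subtracted, chosen after seeing the data, 2 were higher, since *H1f3* crossed the threshold, and with the newer symbols, also added then, 6 were higher and 5 lower. Past a ratio of 5 to 4, 1 variant member was higher and 1 lower, and 1 of the 39 histone-handling genes was past the threshold. The shares of all genes past a ratio of 5 to 4 or past 2-fold were not counted. Counts at these 2 thresholds are therefore not read as results about the members. The median levels per kb became 0.512 and 208.9 with coding length, 4.23 and 73.6 with means in place of medians, and 24.7 for the variant class with newer symbols. The order of the classes held in each of these. The median log2 ratios and the ratios of summed means moved by at most 0.1 on the log2 scale under every alternative run, although the replication-dependent sum ratio passed from 0.964 to 1.01 when each mean was divided by the sum over all genes. Of the single members, 10 had a log2 ratio nearer 0 by more than 0.1 with 1 added to both means, and none reversed past the threshold. Depth limits the 7 members with a mean under 1, of which all but *Hist1h2br* have a counting interval that includes 1.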

Other observations

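Other RNAs without a poly(A) tail gave a further set of values, chosen after the data were seen. *Rn7sk*, the 7SK RNA that holds back a transcription elongation factor, had means of 25.0 in controls and 20.5 in mutants. *Rmrp* and *Rpph1*, the RNA parts of ribonucleases MRP and P, had control means of 0.273 and 0.132. *Rn7s1* and *Rn7s2*, the RNA of the signal recognition particle, were listed at the same mean of 0.681 in controls. *Rn7sk* lay well above 1, and the other control means lay under 1. By the mean over both groups, 4526 of all 19270 genes and 7 of the 10 replication-dependent members were under 1. The part of a missing tail in any of these values was not tested.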
